A study of Homo sapiens and Mus musculus with 26 samples.

Results

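The genes described here handle cisplatin or repair its damage. They were followed in testicular germ cell tumor (TGCT) cells, in a parental line and in its cisplatin-resistant clone, and all 10 of the 10 genes were found among the 15759 genes present in both tables. They are SLC31A1, ATP7A, ATP7B, ABCC1, ABCC2, ABCB1, GSTP1, ERCC1, ERCC4 and XPA, listed by name for their known roles. The cells were 2102EP (EP), an established human embryonal carcinoma line, and 2102EP-C1 (C1), an isogenic cisplatin-resistant derivative that is a single clone, so that a difference between them belongs to these 2 lines and not to resistance in general. EP cells were treated with DMSO (2 libraries), 10 nM PFOS (2 libraries) or 5 µM PFOS (2 libraries), and C1 cells with DMSO (4 libraries) or 10 nM PFOS (4 libraries), each for 4 days, and no library was labelled as exposed to cisplatin. PFOS is perfluorooctanesulfonic acid, a persistent industrial surfactant, and DMSO is the solvent that served as control. Libraries are taken as replicates as the labels number them. The study's methods describe RNA from biological replicate cultures, while the labels do not tie each library to a culture, and the p-values measure the spread between libraries.

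Cisplatin is a platinum compound that forms adducts on DNA, chiefly between neighbouring purines of the same strand, and it cures most metastatic TGCTs. Copper carriers take part in its entry and removal, pumps of the ABC family export it or its glutathione conjugates, thiols such as glutathione and metallothioneins bind it before it reaches DNA, and nucleotide excision repair cuts the adduct out. TGCT cells are known for their sensitivity to cisplatin, and low levels of excision repair factors have been described in them.

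The deposited unit was log2 CPM, the base-2 logarithm of reads scaled to the library's reads on genes (CPM) after a small prior count, so that 1 unit is a 2-fold change. The EP libraries held between 33.3 and 48.7 M reads on genes and the C1 libraries between 25.6 and 32.8 M, and the member with the fewest reads, ABCB1, had 16 to 66 reads per library. The 2 EP controls held the fewest reads of their line, 33.3 and 39.1 M, against 41.1 to 48.7 M in the treated EP libraries. Their normalization factors were 0.983 and 0.971, against 1.007 to 1.016 in the treated EP libraries. All 12 embryonal carcinoma markers on a fixed list were above 10 CPM in both lines, with a summed level of 8054 to 8206 CPM in EP controls and 8849 to 9012 CPM in C1 controls, although TNFRSF8 (CD30) had a mean of 133 CPM in EP and 15.1 CPM in C1 controls. The seminoma and germ cell list summed to 153 to 155 CPM in EP and 145 to 153 CPM in C1 controls, mostly TFAP2C. It had 4 of 7 genes in EP and 5 of 7 in C1, with SOX17 in neither. KIT (4.03 CPM in EP and 15.9 in C1) and PRDM1 (14.8 and 28.1) were higher in C1, and TFAP2C (134 and 103) was lower. The yolk sac list summed to at most 9.56 CPM, with its defining gene AFP in neither table. The fibroblast list, of which 5 of 7 genes were in each table (DCN and LUM were in neither), summed to 673 to 683 CPM in EP and 251 to 268 CPM in C1 controls, mostly THY1. The trophoblast list (3 of 7 genes in each table, CGA in neither) summed to 46.0 to 49.6 CPM in EP and 15.8 to 23.1 CPM in C1 controls, and the neural list (3 of 6 genes, PAX6 and SOX1 in neither, mostly NES) to 663 to 666 and 375 to 420 CPM. The part of these lists in the line differences was not tested. One library stood apart: replicate 1 of C1 at 10 nM PFOS had 272 genes at least 2-fold from the rest of its group, against 51 to 104 in the other C1 libraries. Some of the results that include it are given with and without it.

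The sequences just upstream of the genes that differed most between the lines are shown first, so that the letters can be read beside the values. They are 250 bases before an annotated start, from RefSeq on GRCh38.p14, in the direction of the gene. ATP7A (chrX:77910443-77910692, + strand), ABCC2 (chr10:99782390-99782639, + strand) and ABCB1 (an upstream start at chr7:87713296-87713545 and a downstream start at chr7:87600885-87601134, - strand) were higher in C1 by at least 1 log2 unit, XPA (chr9:97697341-97697590, - strand) was the member that was lower by most, and MT2A (chr16:56608334-56608583, + strand) is a metallothionein gene with a larger difference than any of the 10. Capitals mark 3 motifs searched on both strands: the GC box GGGCGG (in 42.6% of 35116 promoter windows of this length), the CCAAT box CCAAT (32.0%) and the core of the metal response element, TGCACNC or TGCGCNC (24.8%).
ATP7A: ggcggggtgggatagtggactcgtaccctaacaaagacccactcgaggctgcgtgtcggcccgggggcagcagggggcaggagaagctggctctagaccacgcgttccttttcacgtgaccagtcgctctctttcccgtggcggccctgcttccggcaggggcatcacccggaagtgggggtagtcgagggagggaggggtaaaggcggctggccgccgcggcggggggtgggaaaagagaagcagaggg
ABCC2: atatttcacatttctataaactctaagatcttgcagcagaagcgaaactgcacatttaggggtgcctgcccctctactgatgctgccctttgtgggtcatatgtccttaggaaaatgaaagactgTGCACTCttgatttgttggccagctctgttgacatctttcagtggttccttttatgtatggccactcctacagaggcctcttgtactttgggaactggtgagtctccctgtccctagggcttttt
ABCB1, upstream start: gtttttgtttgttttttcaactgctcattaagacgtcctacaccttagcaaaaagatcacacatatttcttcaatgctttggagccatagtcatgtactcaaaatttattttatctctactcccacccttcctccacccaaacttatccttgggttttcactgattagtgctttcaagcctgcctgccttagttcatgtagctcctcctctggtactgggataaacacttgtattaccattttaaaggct
ABCB1, downstream start: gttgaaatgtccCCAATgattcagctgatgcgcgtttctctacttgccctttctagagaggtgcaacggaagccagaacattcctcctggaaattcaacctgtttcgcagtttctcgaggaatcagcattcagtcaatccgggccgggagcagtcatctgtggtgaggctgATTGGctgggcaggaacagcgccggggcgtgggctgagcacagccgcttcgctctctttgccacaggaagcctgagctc
XPA: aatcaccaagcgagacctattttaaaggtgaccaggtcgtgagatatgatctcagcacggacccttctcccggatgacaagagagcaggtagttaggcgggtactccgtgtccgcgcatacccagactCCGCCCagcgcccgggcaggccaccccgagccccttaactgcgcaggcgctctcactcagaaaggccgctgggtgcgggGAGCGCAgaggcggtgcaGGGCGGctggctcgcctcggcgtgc
MT2A: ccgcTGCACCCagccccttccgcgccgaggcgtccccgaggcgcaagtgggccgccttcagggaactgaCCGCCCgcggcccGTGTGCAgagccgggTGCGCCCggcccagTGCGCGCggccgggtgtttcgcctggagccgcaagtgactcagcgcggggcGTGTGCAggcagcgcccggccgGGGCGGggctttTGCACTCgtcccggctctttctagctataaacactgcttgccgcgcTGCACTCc
The ATP7A window held none of the 3 motifs and the upstream ABCB1 window none either, while the downstream ABCB1 window held 2 CCAAT boxes, the ABCC2 window 1 metal response element core and the XPA window 2 GC boxes and 1 such core. The MT2A window held 7 cores and 2 GC boxes. The windows also differed in CpG dinucleotides, with 20 in ATP7A, 22 in XPA and 32 in MT2A, but 1 in ABCC2, 1 and 12 in ABCB1, against a median of 11 over all windows. A TATA box, TATAAA (10.7% of windows), was in the ABCC2 and MT2A windows only of these 6. A match is a match of letters and no measurement of binding. Windows were found for 9 of the 10 members, and ABCC1 is named only.

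Levels of different genes were compared per kilobase of the canonical transcript (GENCODE 44), in CPM per kb. In EP controls GSTP1 was the most abundant member at 784 ± 41.4 CPM per kb (SD, n = 2), followed by ABCC1 at 22.7 ± 0.26, SLC31A1 at 16.3 ± 0.085, ERCC1 at 7.32 ± 0.38, XPA at 6.15 ± 0.21, ERCC4 at 3.18 ± 0.095, ATP7A at 1.84 ± 0.24, ATP7B at 0.904 ± 0.14, ABCC2 at 0.275 ± 0.0021 and ABCB1 at 0.120 ± 0.037. No neighbours in this order overlapped. GSTP1 is the pi-class transferase that conjugates glutathione to electrophiles, and the pumps ABCC2 and ABCB1 stood at the other end of the scale. In C1 controls the order was GSTP1 at 632 ± 26.9 CPM per kb (SD, n = 4), SLC31A1 at 29.6 ± 1.25, ABCC1 at 17.9 ± 0.60, ERCC1 at 7.37 ± 0.49, ATP7A at 5.20 ± 0.38, ERCC4 at 4.57 ± 0.25, XPA at 3.14 ± 0.24, ATP7B at 1.01 ± 0.11, ABCC2 at 0.562 ± 0.040 and ABCB1 at 0.340 ± 0.052. There the libraries of ATP7A and ERCC4 overlapped, and no other neighbours did. Between the lines, SLC31A1 and ABCC1 changed places, and ATP7A moved above ERCC4 and XPA. With the length of all annotated exons in place of the canonical transcript, XPA stood above ERCC1 in EP cells. In C1 cells XPA then stood above ERCC4, ERCC4 above ATP7A, and ABCC2 above ATP7B. These places therefore depend on the transcript assumed.

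**Figure D1:**
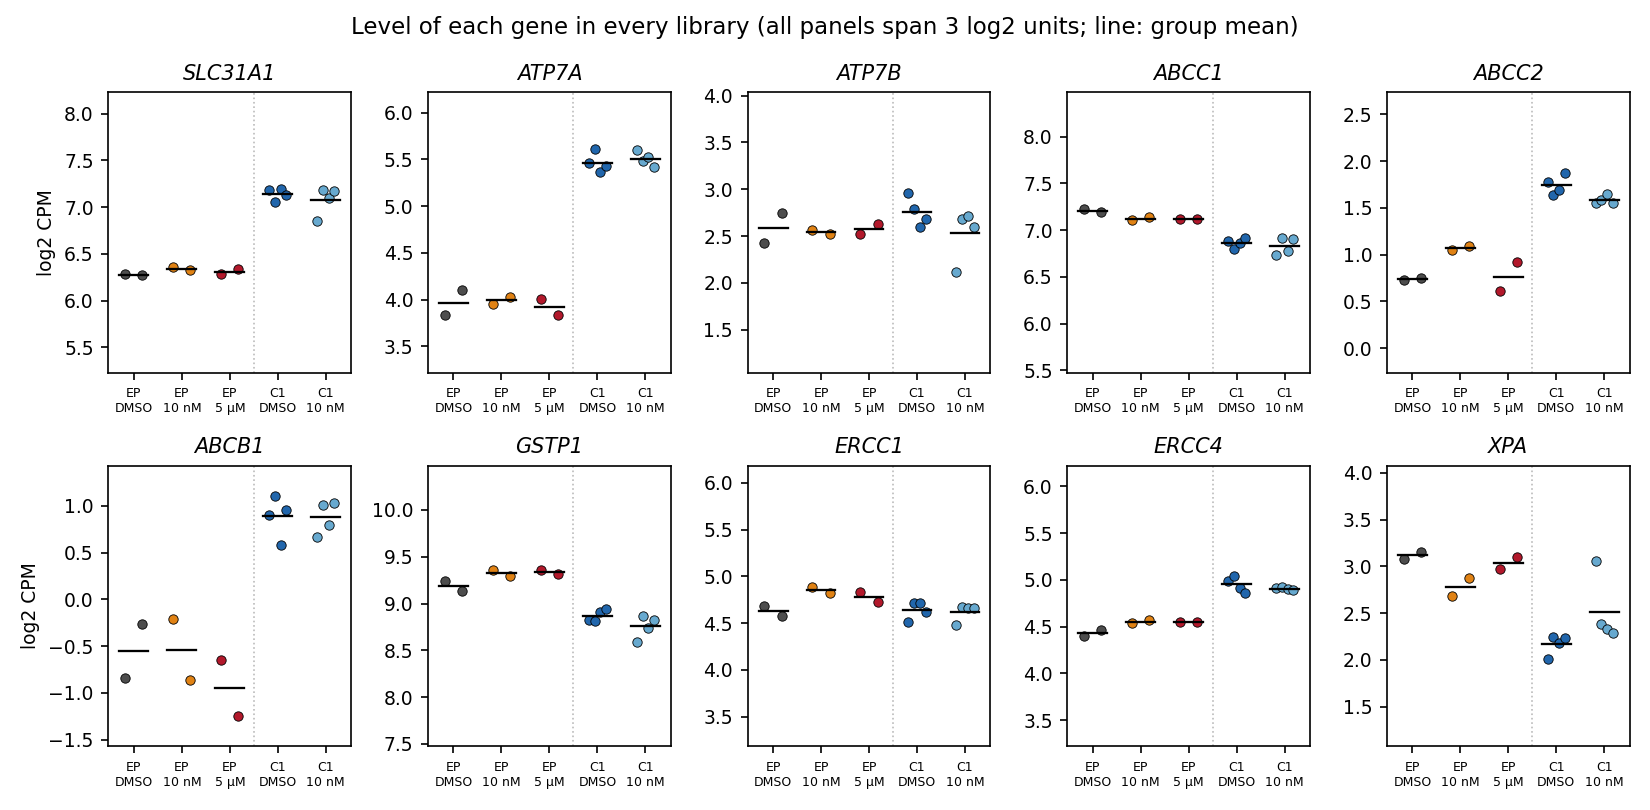
Log2 CPM (vertical axis) of each of the 10 genes in every library, by line and treatment (horizontal axis), with 1 point per library and a line at the group mean; each panel spans 3 log2 units. ATP7A, ABCB1, SLC31A1, ABCC2 and ERCC4 sit higher in all C1 libraries than in all EP libraries. The single high XPA point of C1 at 10 nM PFOS, 3.05, is replicate 1.

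The first comparison asked how the resistant clone differed from its parental line before any PFOS. The tables of the lines were normalized separately, so no test was made across them, and the line and its table cannot be told apart. In bulk RNA, fewer cells with a transcript and less of it per cell cannot be told apart either. A gene was counted where its mean log2 CPM differed by at least 1 unit and no library of one line lay within the range of the other. By this rule 3 of 10 members differed, all higher in C1 (ATP7A, ABCB1 and ABCC2), where 25.2% of all 15736 genes did so and 12.7% were higher in C1. The members' count is therefore near that of all genes. The ranges of the lines did not overlap at any size for 8 of the 10 (5 higher and 3 lower in C1), as for 82.6% of all genes. The median difference of the 10 genes was 0.35 log2 units and that of all genes 0.09, with quartiles of -0.54 and 0.63.

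Among the copper carriers, SLC31A1 (CTR1), the high-affinity copper importer through which cisplatin can enter, is on chromosome 9 (GRCh38, 113221544 to 113264492). Its log2 CPM was 6.28 and 6.27 in EP controls and 7.18, 7.06, 7.19 and 7.13 in C1 controls. The importer was thus higher in every C1 library, by 0.86 log2 units or 1.82-fold, short of the 1-unit rule. ATP7A, a P-type ATPase that moves copper out of the cell, is on the X chromosome (77910690 to 78050395). It stood at 3.83 and 4.10 in EP controls and at 5.46, 5.61, 5.36 and 5.43 in C1 controls, a difference of 1.50 log2 units or 2.82-fold that exceeded that of 95.2% of all genes. ATP7B, the related exporter named for its loss in Wilson disease, read 2.42 and 2.75 in EP and 2.96, 2.79, 2.59 and 2.68 in C1, and the lines overlapped. Of the carriers, then, the importer and 1 of the 2 exporters were higher in the clone. The exons of ATP7A share 97 bases with an annotated transcript of its neighbour PGK1 on the same strand.

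Among the ABC pumps, ABCC1 (MRP1), an exporter of glutathione conjugates, was lower in every C1 control, at 6.88, 6.80, 6.86 and 6.92 log2 CPM against 7.22 and 7.20 in EP, a difference of -0.34. ABCC2 (MRP2), an exporter of conjugates often studied with cisplatin, was higher, at 1.78, 1.64, 1.70 and 1.87 against 0.73 and 0.75. This is a difference of 1.01 log2 units on 92 to 112 reads per C1 library and 52 and 61 reads in EP, and it came to 0.92 with median-of-ratios scaling over both tables and to 0.71 on the log2(CPM + 1) scale. ABCB1 (MDR1), the P-glycoprotein pump for which cisplatin is a poor substrate, read 0.91, 1.11, 0.58 and 0.95 in C1 and -0.84 and -0.26 in EP. The ranges of ABCB1 did not overlap, and the difference was 1.44 log2 units on 41 to 66 reads per C1 library and on 16 and 29 reads in EP (0.77 on the log2(CPM + 1) scale). Among the members the pumps with few reads were thus higher in the clone and the abundant pump was lower. The abundant ABC pumps of the related list were not lower in the clone. ABCB1 lies beside its close paralogue ABCB4, between which reads could be split, and both were higher in C1 by 1.44 units.

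GSTP1 is on chromosome 11 (67583742 to 67586656). Its log2 CPM was 9.24 and 9.13 in EP controls and 8.83, 8.81, 8.91 and 8.94 in C1 controls, lower in every C1 library by 0.31 units, which is 1.24-fold higher in EP. The transferase was therefore not higher in the resistant clone.

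The excision repair members were read in the order of the reaction. XPA, which binds the damaged site and places the other factors, is on chromosome 9 (97674909 to 97697340) and read 3.08 and 3.15 log2 CPM in EP controls and 2.00, 2.24, 2.18 and 2.23 in C1 controls. This damage-binding factor was lower in every C1 library, by 0.95 units, or 1.94-fold higher in EP, and 13.6% of all genes had a lower difference. ERCC1 and ERCC4 (XPF) form the nuclease that cuts the strand on the 5′ side of the adduct. ERCC1 read 4.68 and 4.58 in EP and 4.51, 4.72, 4.71 and 4.62 in C1, with overlapping ranges and a difference of 0.01. ERCC4 read 4.40 and 4.46 in EP and 4.99, 5.04, 4.91 and 4.86 in C1, and was higher in every C1 library by 0.52. The nuclease partners thus differed from each other, and neither was lower in the clone. The exons of ERCC1 share 1593 bases with POLR1G and those of ERCC4 share 911 bases with an antisense RNA, both on the opposite strand, and whether the counting used strand is not given in the sources used here.

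The same differences were read in the libraries treated with 10 nM PFOS. By the 1-unit rule 2 of 10 members differed there, against 24.2% of all genes. ATP7A (1.52) and ABCB1 (1.41) were close to their values in controls, as were SLC31A1 (0.73), ERCC4 (0.35) and ABCC1 (-0.29). ABCC2 came to 0.51 and no longer reached 1 unit, and GSTP1 to -0.57. ATP7B came to -0.01 with overlapping lines, and without C1 replicate 1 to 0.12 with C1 above EP. XPA came to -0.27 with overlapping lines, and without C1 replicate 1 to -0.44 with no overlap. ERCC1 came to -0.23 with C1 below EP, and to -0.18 without that library.

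**Figure D2:**
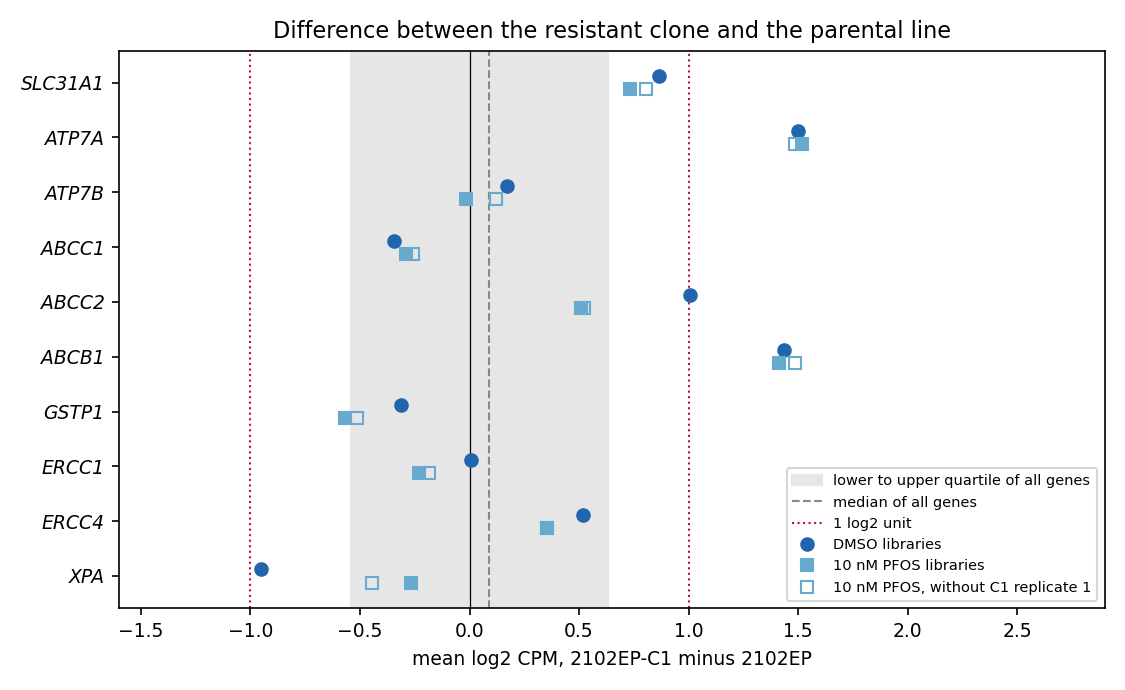
Difference in mean log2 CPM, 2102EP-C1 minus 2102EP (horizontal axis), for each of the 10 genes (vertical axis) in DMSO libraries (circles) and in 10 nM PFOS libraries (filled squares, and open squares without C1 replicate 1). The band spans the lower to upper quartile of all genes, the dashed line their median, and the dotted lines mark 1 log2 unit. ATP7A and ABCB1 lie beyond 1 unit in both sets of libraries, and XPA moves from -0.95 to -0.27.

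Genes within 1 Mb of each member were read as context for the line difference. All 7 neighbours of ATP7A were higher in C1, with a median of 0.77 log2 units. Of the 9 neighbours of ABCB1, 7 were higher, with a median of 0.69. The neighbours of GSTP1 (38 genes, of which 8 were higher, median -0.85) and of ERCC1 (49 genes, of which 17 were higher, median -0.59) were mostly lower. Around the other members the medians lay near that of all genes, from -0.10 at ABCC1 to 0.25 at ATP7B, among them 0.13 at ABCC2, 0.07 at SLC31A1 and 0.11 at XPA. The differences of ATP7A and ABCB1 thus had the sign of their neighbourhoods and exceeded their medians, whereas XPA was lower in a neighbourhood that was not. GSTP1 (-0.31) and ERCC1 (0.01) lay above the medians of their neighbourhoods. SLC31A1 (0.86), ABCC2 (1.01) and ERCC4 (0.52) were higher where the medians were near the 0.09 of all genes.

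The second comparison asked which of these genes moved with PFOS in parental cells. At 10 nM PFOS, limma with Benjamini-Hochberg adjustment over all genes called 3 of 10 members, against 25.7% of the 16694 genes tested, so that the share is near the background. Both treated groups of EP cells were compared with the same 2 controls, which also held the fewest reads. A change shared by both groups therefore cannot be told apart from a difference in those 2 control libraries.

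ERCC1 rose. Its log2 CPM was 4.89 and 4.82 at 10 nM against 4.68 and 4.58 in controls, a log2 fold change of 0.22 ± 0.066 (SE, limma adjusted p = 0.0216), or 16.5%. GSTP1 rose as well, at 9.36 and 9.30 against 9.24 and 9.13, by 0.14 ± 0.043 log2 units (limma adjusted p = 0.0223). XPA fell, at 2.68 and 2.88 against 3.08 and 3.15, a log2 fold change of -0.34 ± 0.10 (limma adjusted p = 0.0242). For each of these 3 genes both treated libraries lay on the same side of both controls, as for 59.9% of all genes. The changes were small beside the line differences of ATP7A and ABCB1, and none of the 3 calls held when replicate 1 at 10 nM or replicate 2 of the controls was left out. XPA was also not called with libraries scaled to total reads (-0.28, limma adjusted p = 0.0534), where the split of all calls moved from 2141 higher and 2157 lower to 3339 higher and 1539 lower.

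At 5 µM PFOS 1 of 10 members was called, against 26.9% of all genes. GSTP1 rose to 9.36 and 9.32, by 0.16 ± 0.043 log2 units (limma adjusted p = 0.0135) or 11.5%. ERCC1 read 4.83 and 4.72 (0.15 ± 0.066, limma adjusted p = 0.117), and XPA read 2.97 and 3.10 (-0.08 ± 0.10, limma adjusted p = 0.613), with one treated library between the controls. The GSTP1 call was lost without either treated library or without control replicate 2, the value then lying between 0.10 and 0.18.

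The carriers and pumps were not called at either concentration. ATP7A, the largest line difference, read 3.96 and 4.03 at 10 nM and 4.01 and 3.84 at 5 µM, all within the range of its controls, with 95% intervals of the change from -0.17 to 0.22 and from -0.24 to 0.15. SLC31A1 changed by 0.06 and 0.03 with intervals from -0.03 to 0.16 and from -0.07 to 0.13, and ABCC1 by -0.09 at both, with intervals from -0.17 to 0.0011 and from -0.18 to -0.0044. ABCC2 read 1.05 and 1.09 at 10 nM, above 0.73 and 0.75 in controls (0.33 ± 0.19, limma adjusted p = 0.209), but 0.61 and 0.92 at 5 µM. ABCB1, with 16 to 39 reads per EP library, could not be judged finely, since its intervals ran from -0.71 to 0.73 and from -1.12 to 0.32. ATP7B changed by -0.04 and -0.01, and ERCC4 by 0.12 at both concentrations (limma adjusted p = 0.201 and 0.194).

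The concentrations were also compared with each other. No member and none of the 16694 genes were called between 5 µM and 10 nM (limma, 552 genes at an unadjusted p under 0.05, and 0 called by limma-voom). Leaving out 1 library gave 59 called genes without replicate 1 at 5 µM and at most 1 otherwise, none of them a member. XPA was the only member with an unadjusted p under 0.05, higher at 5 µM in both libraries (0.26 ± 0.10, limma adjusted p = 1.00), and ABCC2 (-0.31, 95% interval -0.70 to 0.08) and ABCB1 (-0.41, -1.13 to 0.31) had wide intervals. The other 7 members differed by between -0.07 and 0.03.

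**Figure D3:**
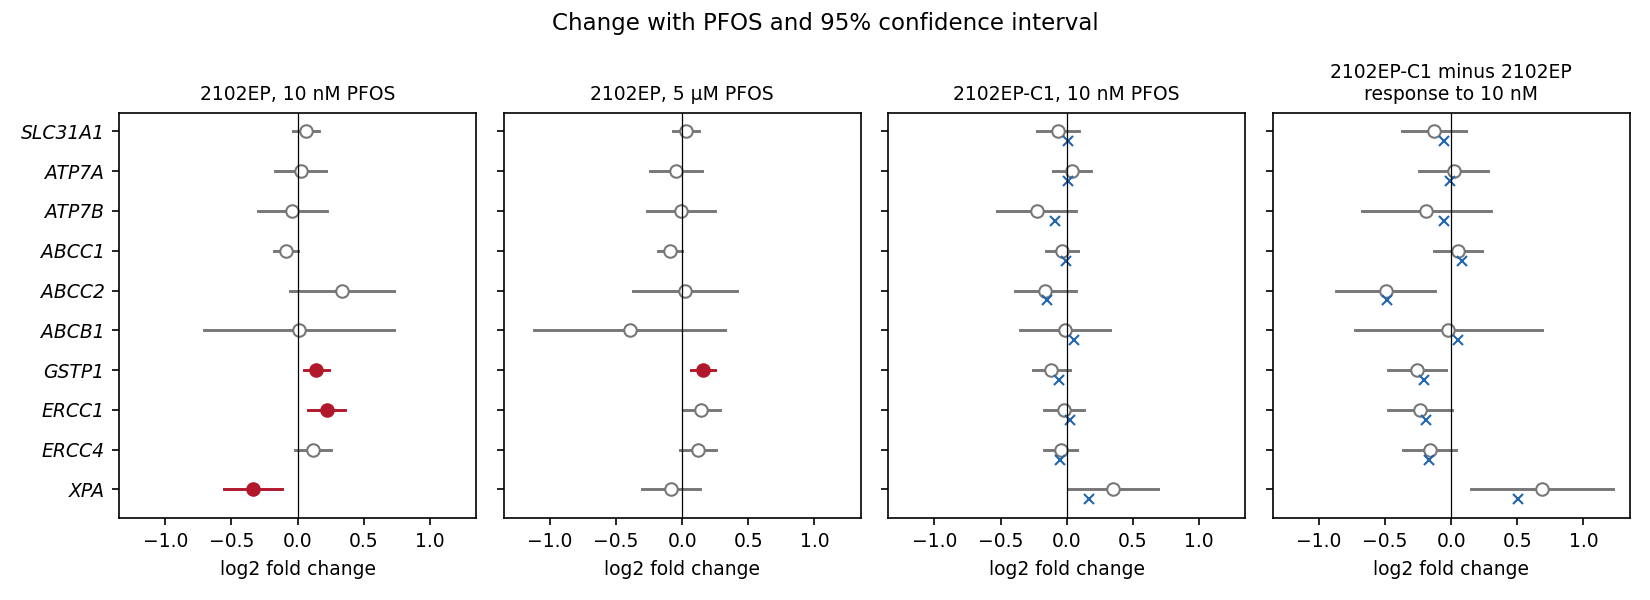
Log2 fold change (horizontal axis) and 95% confidence interval of each of the 10 genes (vertical axis) in 2102EP at 10 nM and 5 µM PFOS, in 2102EP-C1 at 10 nM PFOS, and the difference between the lines in the response to 10 nM. Filled red points passed an adjusted p of 0.05 (XPA, GSTP1 and ERCC1 in the first panel, GSTP1 in the second) and crosses give the value without C1 replicate 1 at 10 nM.

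In C1 cells no member was called at 10 nM PFOS. None of the 17256 genes tested passed the threshold (limma, 2768 genes at an unadjusted p under 0.05, and 0 called by limma-voom). Without replicate 1 at 10 nM 7 genes were called, none of them a member. XPA read 3.05, 2.38, 2.33 and 2.29 at 10 nM against 2.00, 2.24, 2.18 and 2.23 in controls. All 4 treated libraries were above all 4 controls, where 9.75% of all genes had groups that did not overlap, but the change of 0.35 ± 0.16 (limma adjusted p = 0.306) rested in large part on replicate 1, without which it was 0.17 ± 0.11 (limma adjusted p = 0.520). The other members changed by between -0.23 (ATP7B) and 0.04 (ATP7A). For ATP7B the treated libraries read 2.12, 2.68, 2.71 and 2.60, the low one again replicate 1, and without it the change was -0.09. SLC31A1 showed the same pattern, at 6.85 in replicate 1 and 7.10 to 7.18 in the others. Its change was -0.07 with replicate 1 and 0.01 without it. The 95% interval of ATP7A ran from -0.10 to 0.18, that of ABCC1 from -0.16 to 0.09, that of ERCC1 from -0.17 to 0.13 and that of ERCC4 from -0.17 to 0.08.

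The response to 10 nM PFOS was then compared between the lines as a difference of the within-table changes. No member was called (limma, 0 of 10), against 5.51% of the 15736 genes. That share rested on single libraries, since leaving out 1 library moved it from 0.14% (without EP control replicate 1 or EP replicate 2 at 10 nM) to 12.1% (without C1 replicate 1 at 10 nM). XPA had the largest of the 10 differences, a C1 minus EP response of 0.69 ± 0.25 (limma adjusted p = 0.117), since it fell in EP and read higher in each C1 library. Without C1 replicate 1 this difference was smaller but more precise, 0.51 ± 0.16, and passed the threshold (limma adjusted p = 0.0443), in the fit that called 12.1% of all genes. ABCC2 (-0.50 ± 0.18, limma adjusted p = 0.107) and GSTP1 (-0.26 ± 0.10, limma adjusted p = 0.145) had the opposite sign and did not pass with or without that library. ERCC1 had a difference of -0.24 ± 0.11 (limma adjusted p = 0.212), and the other 6 lay between -0.19 (ATP7B) and 0.05 (ABCC1).

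The genes around these 10 in the same processes were read from named lists, which were chosen with earlier results of these data known. Metallothioneins are small cysteine-rich proteins that bind copper, zinc and platinum. By the 1-unit rule 5 of 7 were lower in C1 controls and 0 higher (71.4%, where 25.2% of all genes differed and 12.5% were lower), with a median of -1.72 log2 units. MT2A, the most abundant of them in EP cells, had 290 and 294 CPM in EP controls and 19.9 to 26.1 CPM in C1 controls. It differed by -3.67 log2 units, which is 12.8-fold higher in EP, and MT1E by -2.32. MT1M (-2.06), MT1G (-1.72) and MT1H (-1.47) completed the 5. At 10 nM PFOS the count was again 5 of 7. The MT2A promoter printed above held 7 metal response element cores, and the MT1H and MT1X windows held 8 and 4. The MT2A, MT1H and MT1X windows lie close together on chromosome 16, between 56608334 and 56682469. Genes of this list therefore cannot be counted as independent of one another beside the share of all genes. The metallothionein genes are also similar in sequence, so reads could be split among them.

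By the 1-unit rule 25.2% of all genes differed between controls, with 12.7% higher and 12.5% lower in C1. Of the other ABC pumps 3 of 6 (50%) were higher in C1 and 0 lower, namely ABCC4 (MRP4), a pump of organic anions (2.23), ABCC3 (1.46) and ABCB4 (1.44). On the log2(CPM + 1) scale ABCC3 came to 0.85 and ABCB4 to 0.87, which left 1 of 6. The transferase gene GSTM3 came to 0.89 on that scale. Of 20 genes of glutathione and thioredoxin handling 3 were higher and 1 lower, which is 20% and below the share of all genes. GSTA4, an alpha-class transferase (2.50), GSTM3 (1.37) and SLC7A11, the cystine importer (1.24), were higher, and GGT1 (-1.07) was lower. Of 41 further excision repair genes 3 were higher and 1 lower. RPA3, the small subunit of the single-strand binding protein RPA (1.83), and ERCC8, a factor of transcription-coupled repair (1.61), were the highest, RFC3 followed (1.07), and POLD1, the catalytic subunit of polymerase delta (-1.07), was lower. The repair list as a whole thus had 9.76% of its members past the rule and a median of 0.01. Of 9 other carriers and copper chaperones, SLC47A1, a cation exporter (1.06), was higher and CCS, the copper chaperone of superoxide dismutase (-1.28), was lower. That share of 22.2% was also below that of all genes. In the 10 nM libraries SLC47A1 came to 0.98 and CCS to -0.84, and 0 of 9 passed the rule, against 24.2% of all genes. There 3 repair genes were higher and 3 lower, while the ABC pumps (3 higher) and the glutathione list (3 higher, 1 lower) kept their counts. The genes behind the counts were not all the same. SLC7A11 came to 0.83 and RFC3 to 0.68 in the 10 nM libraries, and other genes of their lists passed instead. SLC47A1 (0.98) and RFC3 (0.99) also fell short of 1 unit with median-of-ratios scaling.

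**Figure D4:**
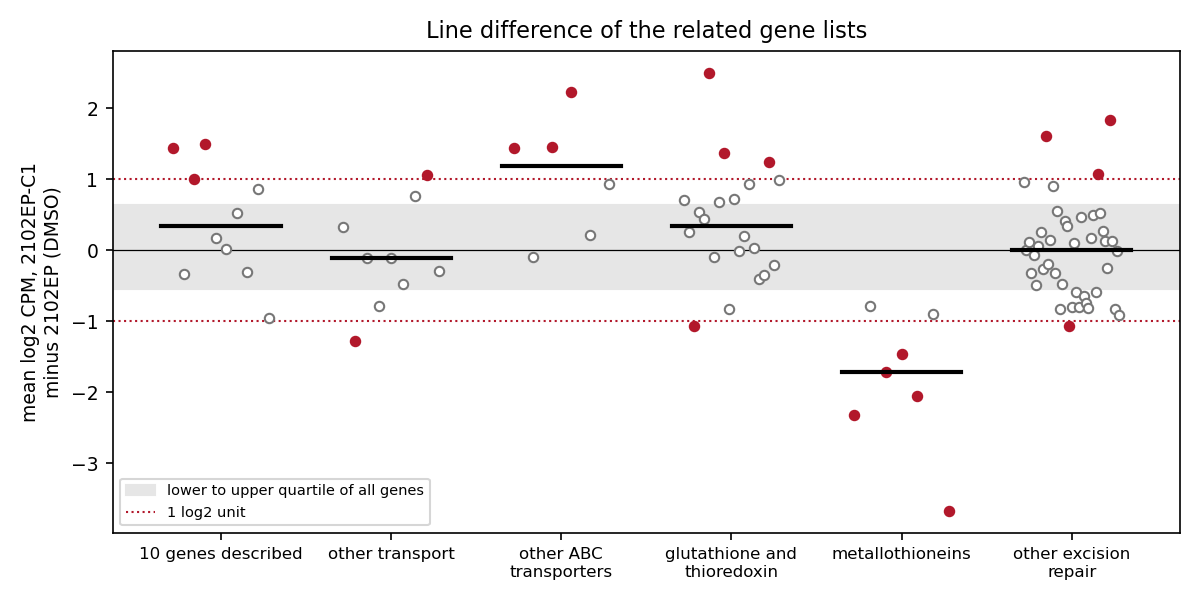
Difference in mean log2 CPM between DMSO libraries, 2102EP-C1 minus 2102EP (vertical axis), with 1 point per gene in the 10 genes described and in 5 lists of related genes (horizontal axis). Filled red points differ by at least 1 unit with no overlap, bars are list medians and the band spans the quartiles of all genes. The metallothionein median is -1.72 and no metallothionein lies above 0.

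With PFOS in EP cells, 11 of the 41 further repair genes fell and 4 rose at 10 nM, and 8 fell and 6 rose at 5 µM, a share of 36.6% and 34.1% beside 25.7% and 26.9% of all genes. RFC4, a clamp loader subunit, fell by 0.42 and by 0.41 log2 units (limma adjusted p = 1.6e-05 and 2.0e-05), and RPA3 rose by 0.51 and 0.50. Of the glutathione and thioredoxin list 6 rose and 3 fell at 10 nM, and 7 rose and 3 fell at 5 µM (45% and 50%). GSTO1, an omega-class transferase, rose by 0.50 and 0.52 (limma adjusted p = 2.8e-06 and 2.2e-06), and SLC7A11 rose by 0.34 and 0.25, while MGST3 changed by -0.29 and -0.28.

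MT2A, lower in the clone, was also lower in PFOS-treated EP cells, with a log2 fold change of -0.52 and -0.53 (limma adjusted p = 2.9e-07 and 2.4e-07). MT1H in contrast rose by 0.48 and 0.52. The limit of the 2 shared controls applies to these changes and to those that follow. Among the copper chaperones CCS fell, with log2 fold changes of -0.40 and -0.39. ATOX1, which hands copper to ATP7A and ATP7B, rose by 0.37 and 0.34, and among the pumps ABCC4 rose by 0.37 and 0.35. Of 7 metallothioneins 1 rose and 1 fell at 10 nM, and 2 rose and 1 fell at 5 µM (28.6% and 42.9%). Of 10 other carriers and chaperones tested 1 rose and 1 fell at 10 nM, and 2 rose and 1 fell at 5 µM (20% and 30%). Of 6 other ABC pumps 1 rose at each concentration (16.7%). At 10 nM these shares were near or below the 25.7% of all genes, and at 5 µM all genes had 26.9%. In C1 cells no gene of these lists passed the threshold, with or without replicate 1 at 10 nM.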

How the data were processed

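RNA was extracted, made into stranded mRNA libraries and sequenced by the authors, who used Trimmomatic for trimming, STAR for alignment and featureCounts for gene counts (GRCh38.p14 per the submitters' processing notes). The authors deposited log2 CPM, 1 table per line. The prior count, the normalization factors and the reads behind 100% of values (within 0.05 of a whole read) were worked back from the steps between values. Tested genes had 10 or more reads (in a median-sized library) in 2 EP or 4 C1 libraries and 15 reads in all, 16694 in EP and 17256 in C1 cells. In EP cells 4 rows had no name (at most 0.000443% of reads).

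Each table's log2 values were modelled in R 4.3.3 by limma 3.58.1, using eBayes and its trend option after lmFit, which was checked on simulated data, with Benjamini-Hochberg adjustment over all genes and a threshold of 0.05. Members are given by value or range in every comparison. Of the related lists, at most the 3 called genes of smallest p per list and comparison, and the 2 highest and 2 lowest past the 1-unit rule, are named by rule, and ABCB4, SLC7A11 and RFC3, MT1M, MT1G and MT1H as the rest of small counts after their values were seen. One gene that the rule selects is not reported here. The members and lists were chosen with earlier results of these data known. Positions and lengths are from GENCODE 44. Alternatives were limma-voom, other filters, log2(CPM + 1), median-of-ratios scaling, only the groups compared, a replicate block and leaving out each library, and, chosen after seeing the data, scaling to total reads and the 10 nM libraries for the line difference, with other scales for the related lists. The study describes quadruplicate cultures, and the EP table holds 2 libraries per group.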

Additional observations from a re-analysis of the deposited data

Results flagged for a closer look

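Among 20 sets of 4 C1 libraries checked for a value far from the others (10 genes in 2 groups, where chance gives about 1 in 20), 2 stood out, both from replicate 1 at 10 nM PFOS. ERCC1 read 4.48 log2 CPM there against 4.67 to 4.67 in the other 3 libraries, a gap of 0.971 of the group's range. XPA read 3.05 against 2.29 to 2.38, a gap of 0.878 of the range.

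In the full fit no member's response to 10 nM PFOS was called as different between the lines. XPA had the largest difference, 0.69 (limma adjusted p = 0.117), and was called only without C1 replicate 1 at 10 nM. Some genes of the related lists were called by limma on the difference of the responses (adjusted p under 0.05). The C1 minus EP difference was 0.78 log2 units for the metallothionein MT2A, 0.47 each for the clamp loader gene RFC4, the TFIIH kinase CDK7 and the microsomal transferase MGST3, 0.45 for the copper chaperone CCS and 0.36 for the ligase partner XRCC1. RFC3 had a difference of -0.39. For each of these genes the EP change passed the threshold on its own. The C1 change did not, but this sets no gene apart, since 0 of the 17256 genes tested in C1 cells passed. The EP change was measured against the control libraries that both PFOS groups share. It therefore cannot be told apart from a difference in those controls. With the replicate block none of the genes named here passed for the difference of the responses (limma adjusted p = 0.0528 to 0.112). The share of all genes called in this comparison was 5.51%.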

How the results depend on the processing

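The tests had 2 EP libraries a group and small changes, and ABCB1 had 16 to 66 reads per library, so changes of these sizes were near the limit of detection. Over all alternatives, no called value changed direction. Leaving out 1 library moved the number of members called from 0 to 3 in EP at 10 nM (3 in the full fit), from 0 to 2 at 5 µM (1 in the full fit) and from 0 to 1 in the comparison of responses (0 in the full fit, XPA without C1 replicate 1 at 10 nM). At 5 µM, scaling to total reads called 2 members, adding ERCC1. On the log2(CPM + 1) scale 1 member passed the 1-unit rule between the lines, ATP7A, since ABCC2 came to 0.71 and ABCB1 to 0.77. With median-of-ratios scaling over both tables ABCC2 came to 0.92 and the median of all genes to 0.0047.

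Same-numbered libraries did not deviate together (correlations of -0.052 to 0.025 in EP and -0.19 to 0.075 in C1), so the numbers were not taken as pairs. With a replicate block 3 members were called in EP at 10 nM, 1 at 5 µM and 0 in each of the other PFOS comparisons, as without it, while the genes called in the comparison of responses went from 508 higher and 359 lower to 144 and 56. The genes of the related lists whose responses differed kept that call in 3 to 9 of 12 fits that left out 1 library, and none kept it with the block.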
